A study of Homo sapiens with 5 samples.

Results

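The transcriptome described here is that of HT1080 cells at low density (LD), a human fibrosarcoma line embedded in a type I collagen matrix and read out by RNA-seq. It was described through the 3015 genes with at least 100 reads, out of 27188 genes listed besides RNA5-8S5, and through the genes and gene families that received no read. These 3015 genes were 11.1% of the genes listed, and the 12390 genes with 0 reads were 45.6%. Counts of members and of genes at 0 reads in each list or family below are to be read against these shares. The members were ranked by TPM, transcripts per 1000000, a level corrected for transcript length, after RNA5-8S5 had been left out and the sum of the other genes rescaled to 1000000.

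The study asked how cell density and the cytokines IL-6 and IL-8 alter the migration of tumour cells, and sequenced 5 libraries, 1 per condition. Beside LD, the untreated state at 10 cells per cubic mm, these are a high-density culture and low-density cultures given either cytokine or both, none of which is used here. The cells, at passages 15 to 18, had been seeded in rat-tail collagen at 2 mg per ml, kept for 24 h in medium with fetal bovine serum and lysed within the gel, with no cytokine added. There was no replicate of LD, so every interval below is a 95% interval for the counting of reads alone. HT1080 is 1 cell line, known as background for a mutated NRAS allele, a mutated IDH1 allele and loss of the CDKN2A locus.

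A fibrosarcoma is a malignant tumour of fibroblast-like cells. Such cells are anchored to collagen and fibronectin by integrins, pull on the fibres with actin and myosin, and cut a path through them with membrane-bound and secreted proteases. A growing cell of any origin also spends much of its messenger RNA on ribosomes, glycolysis and the cytoskeleton, while most receptor and structural genes of other tissues are not transcribed. The order below follows those roles, from the protein synthesis machinery to the cytoskeleton, the matrix, signalling, and the families without reads.

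The library held 7118545 reads. The row named RNA5-8S5, the symbol of the 5.8S ribosomal RNA, took 76.9% of them, which left 1645539 reads for all other genes. Its 5473006 reads came with a deposited TPM of 276932. That TPM is low for so many reads and implies a transcript far longer than the 5.8S RNA. Which part of the ribosomal RNA the row counts is therefore not known. With 100 reads, the minimum for a member, the interval ran from 81.4 to 121.6 reads. The members held 84.5% of the reads outside RNA5-8S5 and 88.1% of the rescaled TPM. The median member had 219 reads and 92.2 TPM, against a median of 1 read and 0.51 TPM over all genes listed. The minimum did not fall in a gap of the distribution. CAMK2N1, CISD1 and COX20 lay just inside it with 100 reads each, at 43.0, 48.4 and 38.2 TPM. AKAP9, ANXA1 and BRD8 lay just outside with 99 reads each, at 8.01, 73.7 and 38.7 TPM.

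Levels were concentrated in few genes. The 10 most abundant members held 13.8% of the rescaled TPM, the top 30 held 22.3% and the top 100 held 37.9%. Of the TPM carried by the members, 50% lay in 150 genes. A level of 1000 TPM or more was reached by 153 members, 1265 lay from 100 up to 1000 TPM, 1586 from 10 up to 100 TPM, and 11 below 10 TPM. By RefSeq biotype 2914 members were protein-coding genes, 19 were long noncoding RNA genes and 72 found no entry.

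**Figure D1:**
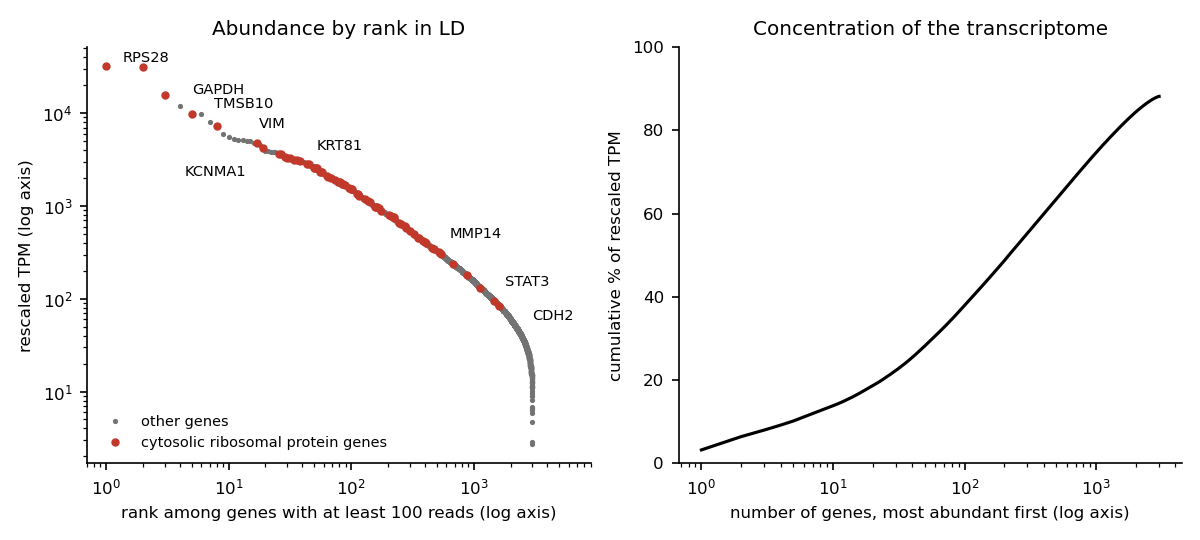
Left, rescaled TPM of each of the 3015 genes with at least 100 reads in LD against its rank (both axes log), with cytosolic ribosomal protein genes in red. Right, cumulative percentage of the rescaled TPM against the number of genes (log axis). The 3 highest genes, RPS28, RPLP1 and RPL8, are ribosomal protein genes, and the curve reaches 37.9% at 100 genes and 88.1% at the last member.

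The cytosolic ribosomal protein genes, which encode the protein part of the ribosome, were the most abundant group. They had a row for 76 genes, of which 75 were members and none was at 0 reads. The exception was RPS29, at 78 reads and 222 TPM. Together they held 20.5% of the rescaled TPM but 7.82% of the reads outside RNA5-8S5 (95% Wilson interval 7.78% to 7.86%). TPM divides by transcript length, and these transcripts are short. Their median was 1436 TPM.

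RPS28, RPLP1 and RPL8 stood above the rest. RPS28, of the small subunit, had 9469 reads (9279 to 9662) and 32369 TPM. RPLP1, of the acidic stalk of the large subunit, had 13552 reads (13325 to 13782) and 31775 TPM. RPL8 followed with 12753 reads and 15872 TPM, and RPL41 with 3916 reads and 9928 TPM. The lowest gene of the group, RPL27A, had 417 reads and 84.4 TPM, and the middle 50% of the 76 genes ran from 596 to 2569 TPM. The 3 highest genes held 39.0% of the group's TPM. The top 30 genes of the library included 11 ribosomal protein genes, among them RPS3 at 7346 TPM, RPL13A at 4751, RPS2 at 4261, RPL38 at 3650, RPL28 at 3644 and RPL5 at 3365 TPM.

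The start sites of these genes are shown because they carry a known shared feature. Many messenger RNAs of the translation machinery begin with a C followed by a run of pyrimidines, the terminal oligopyrimidine tract. In the RefSeq promoter table (GRCh38.p14), 61 of the 76 genes had an entry, and in 42 of these 61 (68.85%) the annotated first base was a C followed by 4 bases that were each C or T. The same letters stood at the start of 4.04% of all 27305 promoters in the table and of 8.23% of the 2466 members with an entry. In the 5 sequences below, from 60 bases before to 15 bases from the start on the gene's own strand, capitals mark the unbroken pyrimidine run at the first base.
RPLP1, chr15:69452758-69452832, plus strand: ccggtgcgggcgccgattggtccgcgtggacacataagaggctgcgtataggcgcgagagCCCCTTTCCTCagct
RPL41, chr12:56116573-56116647, plus strand: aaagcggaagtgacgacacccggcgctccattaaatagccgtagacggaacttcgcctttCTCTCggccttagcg
RPS3, chr11:75399458-75399532, plus strand: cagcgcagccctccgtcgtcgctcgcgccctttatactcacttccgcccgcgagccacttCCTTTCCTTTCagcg
RPL13A, chr19:49487548-49487622, plus strand: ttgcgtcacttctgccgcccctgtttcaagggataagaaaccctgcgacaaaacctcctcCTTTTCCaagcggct
RPL28, chr19:55385872-55385946, plus strand: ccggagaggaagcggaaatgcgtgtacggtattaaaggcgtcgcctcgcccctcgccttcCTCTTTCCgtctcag

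RPS28, the most abundant gene of all, did not hold the run at its annotated first base, but a pyrimidine run began at the next base. Searched from 5 bases before to 10 after the start, the same letters stood in 50 of the 61 genes (82.0%). Over all promoters that share was 21.05%. The RPS28 window is shown beside the others with the letters TATAAA, searched on the gene's strand between 40 and 15 bases before the start, in capitals.
RPS28, chr19:8321436-8321510, plus strand: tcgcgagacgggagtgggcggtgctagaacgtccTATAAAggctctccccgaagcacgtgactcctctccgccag
These letters stood in that window of 2 of the 61 ribosomal protein genes, of 1.82% of the members with an entry and of 2.54% of all promoters. Whether either match acts in these cells is not something the read counts measure. Across the 300-base windows, the ratio of observed to expected CG pairs had a median of 0.87 over the members with an entry and of 0.58 over all promoters.

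Among the translation factors, 31 of 33 genes were members, with a median of 397 TPM. TPT1, the translationally controlled tumour protein, had 5208 TPM, and EEF1G, a subunit of the elongation factor eEF1, had 5033 TPM. GNB2L1, the ribosomal scaffold RACK1, had 4987 TPM and EEF1A1, which carries aminoacyl-tRNA to the ribosome, had 2902 TPM from 10179 reads. EIF2S2, the beta subunit of the initiation factor eIF2, had 0 reads, whereas its partner subunits EIF2S1 and EIF2S3 had 100 and 126 reads. A count of 0 in this library allows up to 3 reads as a one-sided 95% limit (the exact 95% interval reaches 3.7), which is 0.421 per 1000000 of all reads or 1.82 per 1000000 of the reads outside RNA5-8S5.

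Glycolysis was led by GAPDH, with 15819 reads (15573 to 16068) and 11918 TPM, the fourth highest level of the library. ENO1, enolase, had 3752 TPM, ALDOA, aldolase, 2049 TPM and PKM, pyruvate kinase, 895 TPM. In all, 12 of 18 glycolytic genes were members. LDHA, the lactate dehydrogenase subunit that prevails in glycolytic cells, lay at 572 TPM and LDHB at 275 TPM, a ratio of 2.08 (1.84 to 2.35). The nuclear genes for respiratory chain subunits were lower, with 32 of 63 as members, none at 0 reads and a median of 115 TPM. Their highest genes were NDUFB9 of complex I at 1948 TPM, COX8A and COX6B1 of complex IV at 1676 and 977.7 TPM, and UQCRH of complex III at 1130 TPM. The genes of the mitochondrial genome itself were not analysed here, as no row carried their symbols.

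Protein turnover genes were present at intermediate levels. Of the proteasome subunits 27 of 31 were members, with a median of 189 TPM, led by PSMB3, PSMB7 and PSMB4 of the core particle at 1726, 1373 and 1344 TPM and by PSMD2 of the regulatory particle at 1176 TPM. Of the chaperones 23 of 27 were members. HSP90AB1, the constitutive HSP90, had 2990 TPM, which was 5.07 times (4.82 to 5.34) the level of HSP90AA1, its stress-responsive paralogue. CALR and HSP90B1, which fold proteins in the endoplasmic reticulum, had 1285 and 930 TPM, and PPIB, a prolyl isomerase of the same compartment, had 1218 TPM. Reads of such close paralogues can be split between them by the counting.

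Genes for iron and redox handling included 18 of 24 members, with a median of 281 TPM. FTL and FTH1, the light and heavy chains of ferritin, had nearly equal reads, 3153 and 3181, and 3941 and 2723 TPM. PRDX1, a peroxidase, had 2721 TPM. The metallothionein MT2A, which binds zinc and copper, had 2056 TPM. MT1A, of the same family, had 0 reads. IDH1, whose mutated allele is background for this line, had 23 reads (14.6 to 34.5) and 10.2 TPM, below the minimum.

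**Figure D2:**
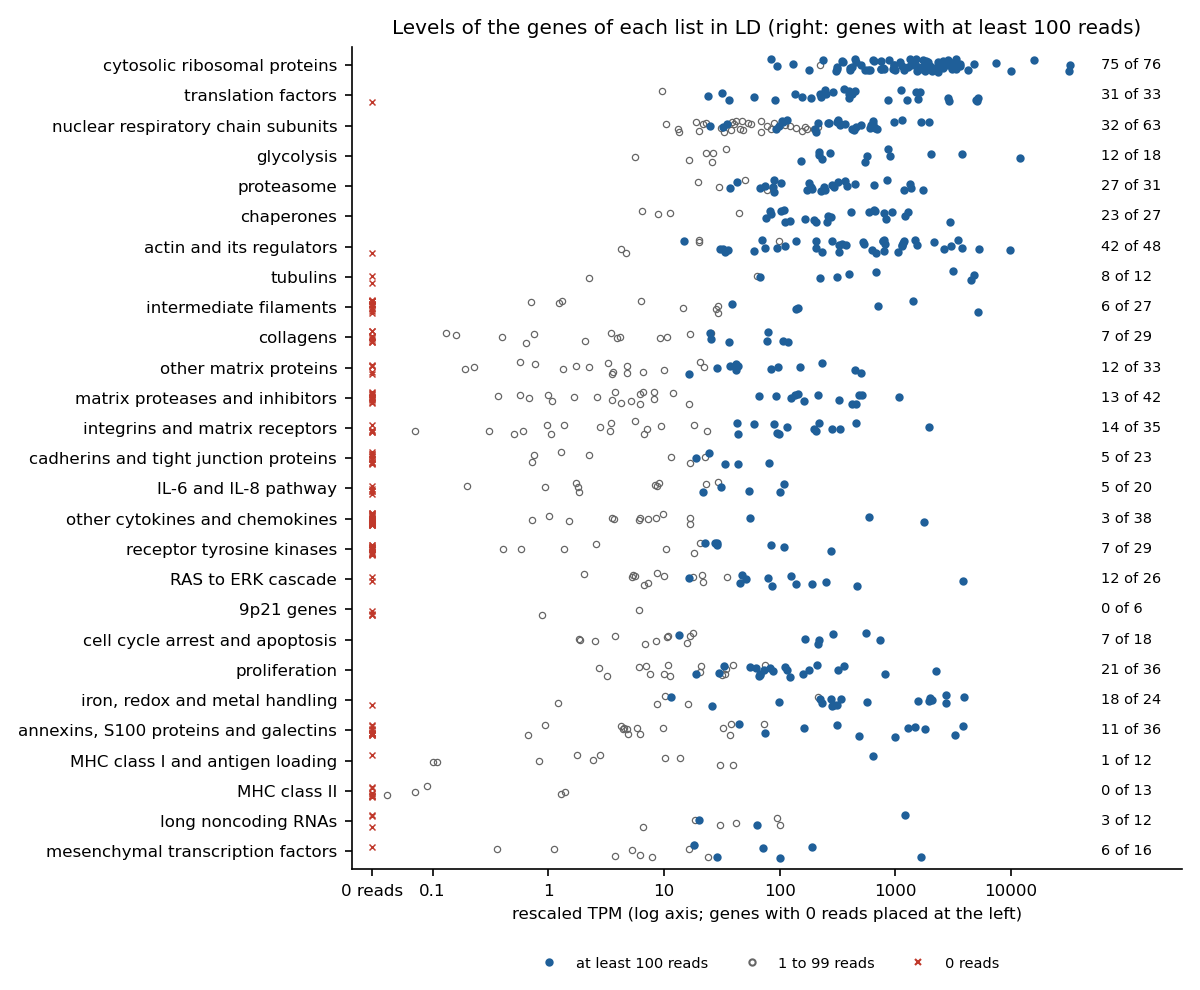
Rescaled TPM (log axis) of each gene of the lists, 1 row per list, in LD. Filled points are genes with at least 100 reads, open points genes with 1 to 99 reads, and crosses genes with 0 reads, and the numbers on the right give the genes with at least 100 reads. Ribosomal protein genes (75 of 76), translation factors (31 of 33) and actin genes (42 of 48) lie to the right, and cytokines (3 of 38) and MHC class II genes (0 of 13) to the left.

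The actin cytoskeleton was the largest part of the non-ribosomal transcriptome among the lists. Of 48 genes for actin and its regulators 42 were members, and together they held 4.83% of the rescaled TPM. TMSB10, thymosin beta 10, which binds actin monomers, had 3847 reads (3726 to 3971) and 9715 TPM. PFN1, profilin, which feeds monomers to growing filaments, had 5296 TPM. ACTB and ACTG1, the 2 cytoplasmic actins, had 3801 and 3488 TPM, a ratio of 1.09 (1.05 to 1.13). TMSB4X, the close relative of TMSB10, was at 128 reads and 233 TPM. CNN1, a calponin of smooth muscle, had 0 reads.

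The Arp2/3 complex, which nucleates branched actin at the leading edge, was present with reads on each of the 8 subunit genes of the list, at unequal levels. ARPC2 had 1609 reads (1531 to 1690) and 1180 TPM, and it was the highest. ARPC1B, ARPC1A and ARPC4 followed at 374, 344 and 286 TPM. ARPC3 had 98.0 TPM from 80 reads, below the read minimum, and ARPC5 had 75.3 TPM. The actin-related subunits ACTR2 and ACTR3, for which the complex is named, were lowest with 33.4 and 30.8 TPM, from 133 and 179 reads. The median over the 8 genes was 192 TPM.

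Of the WASF genes, which activate that complex, WASF2 carried nearly all reads. WASF2 had 338 reads (302.9 to 376.0) and 60.5 TPM. WASF3, the gene the study set between STAT3 and the Arp2/3 complex, had 21 reads (13 to 32) and 4.29 TPM. The paper reports higher WASF3 mRNA by qRT-PCR and higher protein at high density. It also reports that density-dependent migration was lost once WASF3 was depleted. WASF1 had 15 reads (8.4 to 24.7) and 4.70 TPM. On the TPM scale WASF2 was 14.1 times (9.08 to 23.1) as high as WASF3, while the intervals of WASF1 and WASF3 overlapped.

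Microtubules were represented by 8 of 12 tubulin genes. TUBB4B, a beta tubulin, had 4812 TPM, and the alpha tubulins TUBA1B and TUBA1C had 4514 and 3123 TPM, with TUBA1A at 676 TPM. TUBB2B and TUBB3, beta tubulins of neurons, had 0 reads. The row of MC1R, the gene adjacent to TUBB3, held 2514 reads. Its reads and TPM imply a transcript of about 1769 bases, while its GENCODE transcripts run from 2464 to 3637 bases. Whether reads of TUBB3 were counted in the MC1R row was not tested, so the 0 of TUBB3 is uncertain. Tubulin genes are near-identical over much of their coding sequence, so the division of reads among them is uncertain.

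Among intermediate filaments VIM, vimentin, the filament of mesenchymal cells, had 10796 reads (10593 to 11002) and 5128 TPM. The nuclear lamins LMNA and LMNB2 had 1411 and 145 TPM. The keratins KRT8 and KRT18, a pair that polymerises together in simple epithelia, were also members with 710 and 139 TPM, so that VIM was 7.22 times (6.81 to 7.66) as high as KRT8. DES, GFAP, NES and PRPH, filaments of muscle and of neural cells, had 0 reads. In all, 13 of the 27 genes in this list had 0 reads (48.1%, near the 45.6% of all genes).

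Keratins as a family were mostly without reads. Of 57 keratin genes 38 had 0 reads (66.7%, against 45.6% of all genes) and 4 were members. The highest was KRT81, a type II keratin of the hair shaft, with 4730 reads (4596 to 4867) and 2954 TPM, 4.16 times (3.91 to 4.43) the level of KRT8. Keratin genes lie in clusters of close copies, and the pseudogene KRT121P, named here after its values were seen, held 92 reads.

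The label check was mixed. The labels give the cells both as fibrosarcoma cells of connective tissue and as epithelial cells. Of 14 fibroblast and mesenchymal markers with a row, 5 were members (35.7%, against 11.1% of all genes). VIM led, followed by SPARC, a collagen-binding matricellular protein, at 507 TPM, FN1, fibronectin, at 151 TPM and CD44, the hyaluronan receptor, at 97.8 TPM. COL3A1, DCN, LUM and NT5E, all abundant in normal fibroblasts, had 0 reads. Of 13 epithelial markers 3 were members, KRT8, KRT18 and KRT19, the last at 38.5 TPM. The defining epithelial adhesion genes EPCAM and CDH1 had 0 reads, as had the claudins CLDN3 and CLDN7.

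Markers of other lineages were low. No member was found among the 10 endothelial, 16 muscle, 14 neural, 12 hepatocyte, 8 erythroid, 7 melanocyte and 12 pluripotency and germ cell markers. Only 11.1% of all genes were members, so 0 members in 1 list this short says little alone. At 0 reads were from 50.0% (pluripotency and germ cell) to 87.5% (erythroid) of each of these lists, against 45.6% of all genes. In all, the neural list held 72 reads, 57 of them on the neurofilament gene NEFL, the endothelial list 37, the pluripotency and germ cell list 18, the muscle list 8, the hepatocyte and melanocyte lists 7 each and the erythroid list 4. PTPRC, CD3D and CD3E, which define leukocytes, had 0 reads. The leukocyte list had 2 members among 14 genes nonetheless (14.3%, against 11.1% of all genes). They were LCP1, the actin-bundling plastin of leukocytes, at 245 TPM from 614 reads and CD68, a lysosomal protein, at 222 TPM from 404 reads. MYOD1, MYOG, MYF5 and PAX7 of muscle, ALB, APOA1, APOA2 and APOB of liver, VWF, KDR, CDH5 and TEK of endothelium, and GFAP, NEFM, RBFOX3 and SNAP25 of neural tissue were all at 0.

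**Figure D3:**
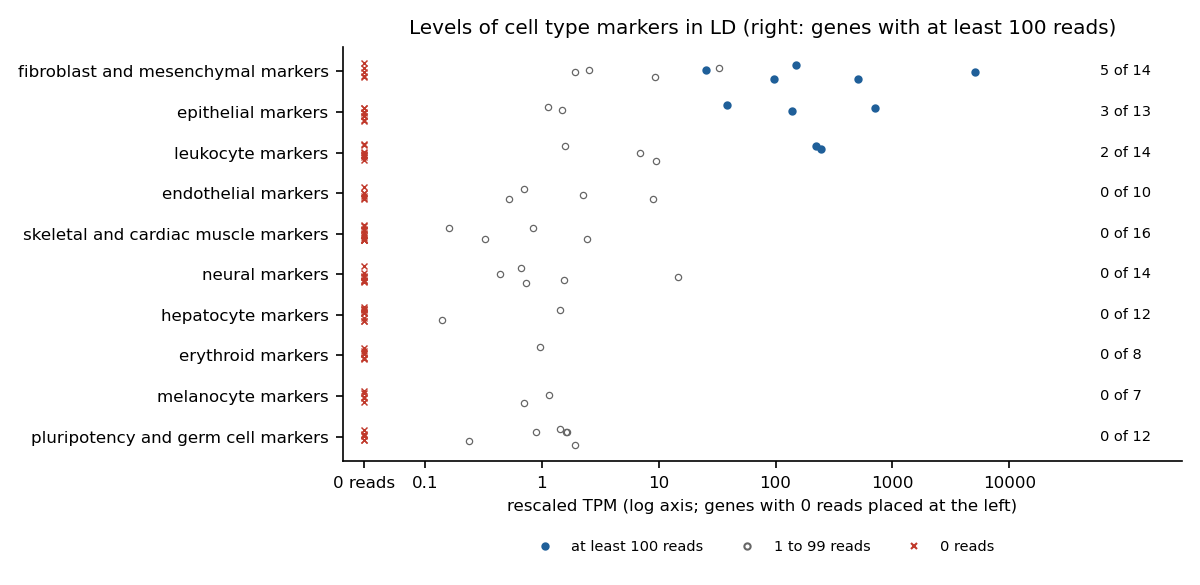
Rescaled TPM (log axis) of cell type markers in LD, 1 row per cell type. Filled points have at least 100 reads, open points 1 to 99 reads, and crosses 0 reads. Filled points occur in the mesenchymal (5 of 14), epithelial (3 of 13) and leukocyte (2 of 14) rows alone. Over all genes 11.1% had at least 100 reads.

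The cells sat in added collagen I. Of 29 collagen genes 7 were members (24.1%, against 11.1% of all genes) and 9 had 0 reads (31.0%), and the highest level was 119 TPM. COL6A3, a chain of the microfibrillar collagen VI, had 1077 reads (1014 to 1143) and 119 TPM. COL4A2 and COL4A1, which pair in basement membrane collagen, had 107 and 79.3 TPM, a ratio of 1.35 (1.202 to 1.513). COL27A1, a fibrillar collagen of cartilage, had 77.0 TPM. COL1A1, the main chain of collagen I, had 153 reads (129.7 to 179.3) and 25.4 TPM, and its partner COL1A2 had 42 reads and 9.32 TPM. COL2A1, COL3A1, COL4A3 and COL4A4 were at 0. All collagen genes together held 0.055% of the rescaled TPM.

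Of 33 other matrix proteins 12 were members (36.4%, against 11.1% of all genes). SPARC and the laminin chain LAMB3 were nearly level, with 1830 and 1818 reads and 507 and 446 TPM. SPP1, osteopontin, had 231 TPM. DCN, LUM, LAMA2 and POSTN had 0 reads.

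Among proteases and their inhibitors 13 of 42 genes were members (31.0%, against 11.1% of all genes). CTSD, the lysosomal cathepsin D, was highest at 1081 TPM. BSG, basigin, an inducer of matrix metalloproteinases, had 511 TPM, SERPINE2, an inhibitor of thrombin and urokinase, 482 TPM, and CTSL1, cathepsin L, 461 TPM. MMP14, the membrane-bound collagenase, had 1168 reads (1102 to 1237) and 328 TPM, and MMP2, the gelatinase that MMP14 activates, had 696 reads (645.2 to 749.7) and 216 TPM. TIMP2, which takes part in that activation, had 144 TPM and TIMP1 425 TPM. MMP7, MMP8, MMP9 and MMP10 had 0 reads. The interstitial collagenase MMP1 had 2 reads. No other matrix metalloproteinase of the list passed the read minimum.

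Matrix receptors were led by the tetraspanins CD63, CD151 and CD81, membrane organisers that associate with integrins, at 1969, 458 and 329 TPM. ITGA3, the alpha chain of a laminin receptor, had 285 TPM and was the highest integrin. ITGB1, the beta chain that most of these alpha chains share, had 89.1 TPM, so that ITGA3 exceeded it 3.20 times (2.85 to 3.61). Other alpha chains that pair with it were ITGA5, the fibronectin receptor, at 217 TPM, ITGA2, a collagen receptor, at 116 TPM and ITGA6 with 325 reads. The collagen receptor chains ITGA1 and ITGA11 had 4 and 7 reads. ITGA8, ITGA9, ITGAL and ITGB7 had 0 reads. Of 35 genes in the list 14 were members.

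Of 23 cadherins, catenins and tight junction proteins, which join cells to each other, 5 were members (21.7%, against 11.1% of all genes). At 0 reads were 11 of them (47.8%, against 45.6% of all genes). CTNNA1, alpha catenin, had 81.2 TPM. CDH2, N-cadherin, had 192 reads (165.8 to 221.2) and 43.5 TPM, and CDH11, the cadherin of mesenchyme, 34.0 TPM. DSG2, a desmosomal cadherin, had 24.3 TPM. CDH1, CDH3, CDH5 and CDH6 had 0 reads.

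The cytokine pathway that the study addresses showed its intracellular part and little of its ligands and receptors. IL-6 binds IL6R and then the shared chain IL6ST, which activates JAK kinases and STAT3, while IL-8 binds CXCR1 and CXCR2. The ligand genes IL6 and IL8 had 0 reads each, with the same limit as above. CXCR1 and CXCR2 had 0 reads as well. The paper, however, measured secreted IL-6 and IL-8 protein from HT1080 cells in collagen by antibody array and ELISA. It also reports effects on migration of depleting IL-6R or CXCR2 in this line. The 0 counts therefore state what this library detected, not that the products were absent. IL6R had 9 reads (4.1 to 17.1) and 1.84 TPM, and IL6ST had 70 reads (54.6 to 88.4) and 23.1 TPM, 12.6 times (6.25 to 28.6) the level of IL6R.

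Of the 20 genes in the list, which also holds ligands, receptors and inhibitors, 5 were members, all kinases or transcription factors. They were STAT6 at 109 TPM, STAT3 at 101 TPM, TYK2 at 54.0 TPM, JAK1 at 31.4 TPM and STAT5B at 21.7 TPM. STAT3 rested on 331 reads (296.3 to 368.6). JAK2 had 1 read. None of these values measures protein or phosphorylation.

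**Figure D4:**
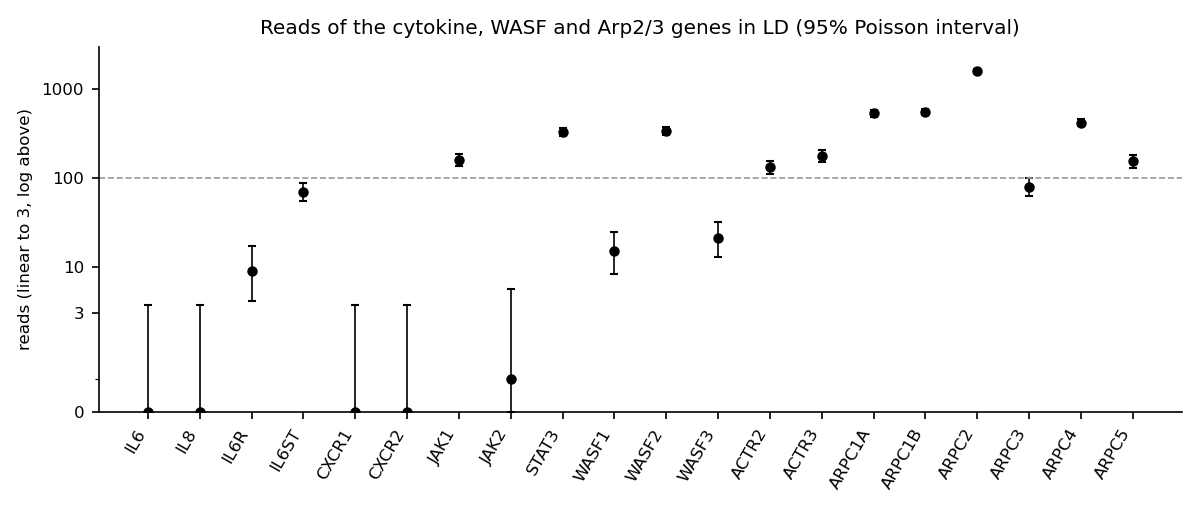
Reads in LD of the IL-6 and IL-8 pathway genes, the WASF genes and the Arp2/3 subunits, with exact 95% Poisson intervals (vertical axis linear to 3 and log above, dashed line at 100 reads). IL6, IL8, CXCR1 and CXCR2 are at 0, STAT3 and WASF2 lie at 331 and 338 reads, and ARPC2 is highest with 1609.

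Other secreted signals were also sparse. Of 38 cytokine and chemokine genes 3 were members (7.9%, against 11.1% of all genes) and 23 had 0 reads (60.5%, against 45.6%). MIF, the macrophage migration inhibitory factor, had 1761 TPM from 841 reads, TGFB1 had 596 TPM from 1295 reads and CSF1, the macrophage growth factor, 55.8 TPM. IL1A, IL2, IL4 and IL5 had 0 reads.

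Receptor tyrosine kinases were represented by 7 of 29 genes (24.1%, against 11.1% of all genes). EPHB2, an ephrin receptor, was highest with 1334 reads (1263 to 1408) and 276 TPM. AXL, the receptor of GAS6, had 110 TPM, and the ephrin receptors EPHA2 and EPHB4 83.9 and 28.9 TPM. EGFR, named after its values were seen, had 114 reads and 27.4 TPM, close to the minimum. ERBB3, ERBB4, KDR and KIT had 0 reads, and 15 of the 29 genes were at 0 (51.7%, near the 45.6% of all genes).

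In the cascade from RAS to ERK, which the mutated NRAS allele engages in this line, CCND1 stood out. CCND1, cyclin D1, which drives entry into the cell cycle, had 16703 reads (16451 to 16958), the most of any gene outside RNA5-8S5, and 3857 TPM. HRAS had 464 TPM and NRAS 80 reads (63.4 to 99.6) and 17.8 TPM. On the TPM scale HRAS was 26.1 times (20.5 to 33.5) as high as NRAS. Paralogues below RAS were unequal too. MAP2K2, one of the kinases that phosphorylate ERK, had 253 TPM, against 21.7 TPM for MAP2K1, a ratio of 11.7 (8.82 to 15.7). MAPK3, which encodes ERK1, had 138 TPM. FOSL1, a target of the cascade, had 192 TPM, while FOS and DUSP6 had 0 reads. In all 12 of the 26 genes were members (46.2%, against 11.1% of all genes).

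Of 6 listed genes at 9p21 none was a member, and 4 had 0 reads (66.7%, against 45.6% of all genes). CDKN2A and CDKN2B, inhibitors of CDK4 and CDK6, had 0 reads. ELAVL2 and IFNE had 0 reads too. MTAP, which lies beside CDKN2A and is often lost with it in tumours, had 19 reads (11.4 to 29.7) and 6.07 TPM. The kinase CDK4, which these inhibitors restrain, had 434 reads and 221 TPM and its paralogue CDK6 13.5 TPM.

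Of 18 genes in the list for cell cycle arrest and apoptosis, which also holds the kinase CDK6, 7 were members. BAX, which permeabilises mitochondria, had 731 TPM, CDKN1A, the CDK inhibitor p21, had 558 TPM from 1180 reads and BBC3, a BH3-only protein, 290 TPM.

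Proliferation genes were present throughout, with 21 of 36 as members and none at 0 reads. HMGB1, a chromatin protein, had 2226 TPM. CKS1B, a cofactor of CDKs, had 812 TPM, H2AFZ, a histone variant, 357 TPM and MCM5, a subunit of the replicative helicase, 322 TPM. The helicase was uneven, with MCM7 at 179 TPM, MCM4 at 67.1, MCM2 at 65.9, MCM3 at 20.7 and MCM6 at 7.61 TPM. The transcription factors linked to mesenchymal cells were led by HMGA1 and HMGA2, architectural chromatin proteins, at 1655 and 101 TPM, with FOSL1 between them and SOX9 at 71.6 TPM. PRRX1 had 0 reads. Of these 16 factors 6 were members.

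Annexins, S100 proteins and galectins, which bind calcium, membranes or sugars, had 11 of 36 genes as members (30.6%, against 11.1% of all genes). LGALS1, galectin 1, had 3829 TPM. S100A6 had 3248 TPM, S100A16 1807 TPM and ANXA2 1466 TPM. ANXA8, ANXA10, ANXA13 and S100A7 had 0 reads.

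Of the genes for antigen presentation, that of the light chain alone was a member. B2M had 588 reads (541.4 to 637.5) and 640 TPM, and the other 11 genes for MHC class I and antigen loading were below the minimum. HLA-F had 0 reads. HLA genes differ between people and among themselves, so the division of reads among these rows is uncertain. Of the 13 MHC class II genes none was a member, and the list held 9 reads in all. At 0 reads were 8 of them (61.5%, against 45.6% of all genes), including HLA-DRA, HLA-DRB1, HLA-DRB5 and HLA-DQA1.

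Families that serve other tissues were almost without reads. All 34 beta-defensin genes had 0 reads. So had all 17 type I interferon genes, which most cells can induce and which lie at 9p21, beside the genes given above. Of 94 keratin-associated protein genes, which encode hair matrix proteins, 92 had 0 reads, and the exception with most reads was KRTAP2-3 with 33 reads (22.7 to 46.3). Of 386 olfactory receptor genes 358 had 0 reads (92.7%) and 382 at most 3, and the highest, OR51B5, had 12 reads. Of 23 bitter taste receptor genes 20 had 0 reads, and TAS2R20 was highest with 4. The 18 late cornified envelope genes of the skin held 3 reads among them, 2 on LCE3D. These shares compare with 45.6% of all genes at 0 reads.

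Start sites of hair keratin-associated genes are shown because they differ in letters from those of the abundant genes above. Of the 94 genes 80 had an entry in the promoter table, and 34 of these (42.5%) held TATAAA between 40 and 15 bases before the start, against 1.82% of the members with an entry and 2.54% of all promoters. The median ratio of observed to expected CG pairs was 0.18, against 0.87 over the members. A low ratio was not particular to this family. The type I interferon genes, with 14 of 17 in the table, had a median of 0.12, and 2 of the 14 held TATAAA. Not every family with most genes at 0 reads had a low ratio. The WNT ligand genes, with 73.7% at 0 reads and 16 of 19 in the table, had a median of 0.83. Of these 16 genes 0 held TATAAA. Of the olfactory receptor and beta-defensin genes 74.9% and 50.0% had an entry, too few for such a value. KRTAP2-3, the family's highest gene, and IL8, at 0 reads, hold the letters, in capitals.
KRTAP2-3, chr17:41060100-41060174, minus strand: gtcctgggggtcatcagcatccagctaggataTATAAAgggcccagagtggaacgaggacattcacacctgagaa
IL8, chr4:73740509-73740583, plus strand: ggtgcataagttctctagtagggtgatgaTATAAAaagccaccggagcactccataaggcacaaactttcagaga

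In the receptor, channel and enzyme families below most genes had 0 reads, against 45.6% of all genes. Of 43 GABA and glutamate receptor genes 32 had 0 reads (74.4%), and GRIN2C was highest with 11 reads. Of 30 Fc, killer-cell and leukocyte immunoglobulin-like receptor genes 23 had 0 reads (76.7%), with LILRB3 highest at 6. Of 10 UDP-glucuronosyltransferase genes 8 had 0 reads, and UGT1A8 and UGT2B4 had 1 each. Potassium channel genes had 63 of 93 at 0 reads (67.7%). They did include KCNMA1, the large-conductance calcium-activated channel, with 3454 reads (3340 to 3571) and 3901 TPM, in the top 30 of the library. The reads and TPM of KCNMA1 together imply a transcript of about 930 bases, while its transcripts in GENCODE 29 run from 439 to 12071 bases, so its TPM rests on a short model.

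In the growth factor and patterning families at most 1 gene was a member, while 11.1% of all genes were. WNT7B was the one member of 19 WNT ligand genes, with 115 reads and 30.8 TPM. Of these 19 genes 14 had 0 reads (73.7%, against 45.6% of all genes). No FGF gene of 22 was a member, 13 had 0 reads (59.1%), and FGF5 was highest with 25 reads. Of 39 HOX genes 12 had 0 reads, below the 45.6% of all genes, and HOXC10 was the one member with 135 reads and 70.0 TPM. TLR9 was the one member of 10 toll-like receptor genes, at 160 reads. Its reads and TPM imply about 1620 bases against the 3870 bases of its GENCODE transcript. PCDHGA1 held 192 of the 221 reads of 20 clustered protocadherin genes, which share their last exons within a cluster.

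Cancer-testis genes, restricted to the germ line in normal tissue, passed the minimum about as often as genes in general. Of 47 MAGE and GAGE family genes 6 were members (12.8%, against 11.1% of all genes) and 29 had 0 reads (61.7%, against 45.6%). MAGEA6 had 398 reads (359.9 to 439.1) and 357 TPM and MAGEA3 343 reads and 247 TPM, and these 2 genes are near-identical copies. Cytochrome P450 genes had 36 of 53 at 0 reads (67.9%, against 45.6%). Their one member was CYP51A1, the sterol demethylase of cholesterol synthesis, with 200 reads.

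**Figure D5:**
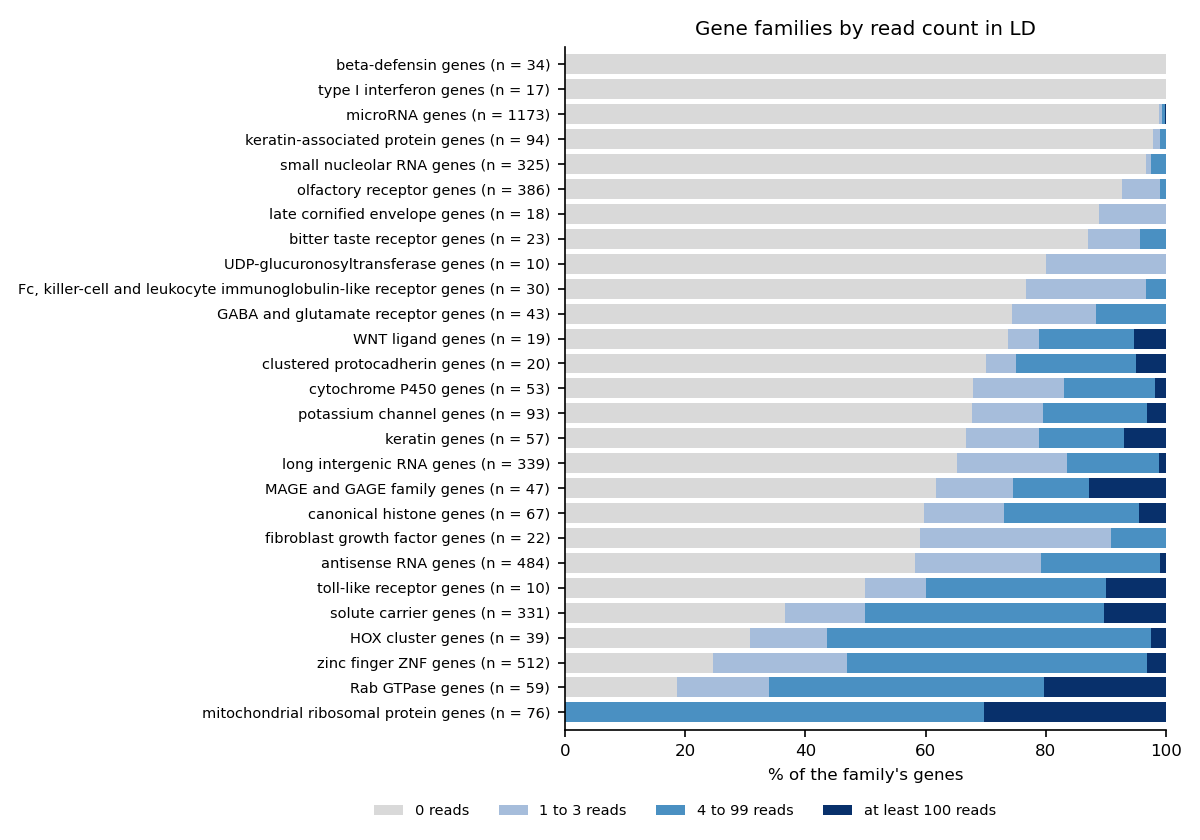
Percentage of the genes of each family with 0 reads, 1 to 3, 4 to 99, and at least 100 reads in LD, with the number of genes beside each name. Beta-defensin and type I interferon genes are at 0 throughout, and no mitochondrial ribosomal protein gene is.

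Some families of general function lay at the other end. None of 76 mitochondrial ribosomal protein genes had 0 reads, 23 were members (30.3%, against 11.1% of all genes) and MRPL12 was highest with 479 reads and 470 TPM. Of 59 Rab GTPase genes, which direct vesicle traffic, 12 were members (20.3%), led by RAB7A of late endosomes with 1901 reads and 863 TPM. Of 331 solute carrier genes 34 were members (10.3%, near the share of all genes) and 121 had 0 reads, with SLC29A1, a nucleoside transporter, highest at 1666 reads and 774 TPM. Zinc finger ZNF genes had reads more often than genes in general but seldom many. Of 512 genes 126 had 0 reads (24.6%) and 16 were members (3.1%), and ZNF598 was highest with 302 reads.

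Noncoding genes were few among the members. The labels give selection of RNA by oligo-dT, and whether it lowered these counts was not tested. RNA5-8S5 still took 76.9% of the reads. The noncoding RNA genes RMRP, SCARNA2 and RPPH1 were members, at 2407, 1011 and 903 TPM. Of 12 long noncoding RNAs 3 were members. SNHG5, a host of small nucleolar RNAs, had 1200 TPM, and NEAT1, the scaffold of paraspeckles, had 1425 reads and 63.6 TPM, spread over a long transcript. TUG1 had 20.0 TPM. H19, HOTAIR and MEG3 had 0 reads. Of 339 LINC genes 4 were members, with LINC00152 highest at 277 reads, and of 484 antisense genes 5 were, with AGAP2-AS1 highest at 672 reads. Small nucleolar RNA genes had 314 of 325 at 0 reads (96.6%, against 45.6% of all genes), and SNORD17 was highest with 45 reads. Of 1173 microRNA genes and their hosts 1160 had 0 reads (98.9%), and the highest was the host MIR22HG with 113 reads. Of 67 canonical histone genes, whose messages mostly lack a poly-A tail, 40 had 0 reads (59.7%, against 45.6% of all genes). The 3 members were led by HIST1H1C with 270 reads. Strand was not given in the sources used here, so reads of an antisense gene and its partner cannot be told apart.

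The remaining genes of the top 30 belong to none of the functions above. PTMA, prothymosin alpha, an acidic nuclear protein, had 9135 reads (8949 to 9324) and 7996 TPM. EMP3, a small membrane protein of the PMP22 family, had 4522 reads (4391 to 4656) and 5993 TPM. TVAS5, a row that neither gene table names, had 13209 reads and 5504 TPM.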

How the data were processed

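Only the LD library of the 5 was analysed. Per the labels, RNA was selected with oligo-dT, the cDNA pool amplified with phi29 polymerase and libraries made with Nextera XT, read at 50 bases. The submitters' notes name Bowtie2 2.3.1, RSEM 1.2.25, GRCh37 and hg19. The authors deposited a read count per gene in whole numbers without normalization, and a TPM value per gene, corrected for transcript length. Deposited TPM summed to 978477, and RNA5-8S5 was left out before rescaling. The design was fixed as a description, with no test. Intervals are exact Poisson intervals for reads, exact binomial intervals carried to the TPM ratio for ratios of genes, and Wilson intervals for shares, and cover counting error only, as amplified reads without molecular identifiers are not independent molecules. The floor was 3 reads.

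The members, the 38 gene lists and the 27 families (by symbol pattern) were chosen with earlier results of these data known. Genes named were the top 30, the 4 highest members and up to 4 genes at 0 reads of each list, the highest of each family, the 3 nearest the minimum on each side, the study's genes, NRAS, IDH1 and the 9p21 genes, and partners within a complex or pair. Rows named by digits alone (25, with 0.198% of the reads outside RNA5-8S5) stayed in the totals unnamed. Transcript length was inferred from reads over TPM, calibrated on 92 members with 1 GENCODE transcript. Promoters were matched by symbol to RefSeq GRCh38.p14, which is not the build of the counts, and 81.8% of the members had an entry. Of the genes without reads 40.9% had one, so promoter values over them as a whole are not reported, and families are given only where at least 80% had an entry. Python 3.11.15, numpy, pandas and scipy were used, and the interval and length steps were tested on simulated counts. Some genes of the lists are counted but not reported by name here.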

Additional observations from a re-analysis of the deposited data

How the results depend on the processing

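The number of members depended on the minimum, with 4837 genes at 50 reads, 1635 at 200 reads and 6434 at a rescaled TPM of at least 10, against 3015. Silence was less sensitive, with 15507 genes at no more than 3 reads and 14882 under 1 TPM, against 12390 at 0. Of the TPM held by the members, 50% lay in 150 genes. With RNA5-8S5 kept it lay in 38, by read counts in 315, and over all genes in 218. The share of the ribosomal protein genes was 20.5% of the rescaled TPM, 14.7% with RNA5-8S5 kept, 7.82% of the reads outside RNA5-8S5, and 23.23% over the members alone. Added after the values had been seen, leaving out RPS28, RPLP1 and RPL8 gave 13.58%, and leaving out 18 entries of implied length under 200 bases gave 20.56%. Of the top 30 by TPM, 20 were also in the top 30 by reads. The number of genes at 0 reads stayed within 1.5 times in 23 of 27 families when up to 3 reads were allowed. In many families it could not rise further, as most genes were already at 0, such as all 34 beta-defensin genes. The mitochondrial ribosomal protein genes, with 0 such genes in both settings, were counted among the families that moved. The number of members stayed within 1.5 times in 25 of 28 lists at 50 reads and in 20 of 28 at 200 reads. No paired analysis was possible because a single library was described. With 1 library, biological and technical variation cannot be separated, and a gene at 0 reads was not detectable at this depth.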

Other observations

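Some of the 40 most abundant members in none of the lists are given here, chosen after their values were seen. RNA-binding proteins among them were LSM7 with 1431 reads and 3288 TPM, SNRPD2 with 1663 reads and 2456 TPM, YBX1 with 3424 reads and 2289 TPM and HNRNPC with 3047 reads and 1770 TPM. RHOC and RAC1, small GTPases that steer actin and cell movement, had 1997 and 2744 reads and 1607 and 1183 TPM. PTRF, the coat protein of caveolae, had 4120 reads and 1150 TPM. SQSTM1, an autophagy receptor, had 5451 reads and 1890 TPM. RMRP, the RNA of the RNase MRP complex, had 421 reads and 2407 TPM, and its TPM rests on a transcript of about 223 bases.

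Some rows read against their neighbours or copies, and their values are given with no explanation. MC1R, the melanocortin receptor, had 2514 reads and 1454 TPM, while the adjacent TUBB3 had 0 reads and the melanocyte markers PMEL, TYR, TYRP1 and DCT had 0. RPL17-C18orf32, a read-through row, had 2089 reads and 3090 TPM, and RPL17 alone had no row. NUDT3 had 1349 reads and 2179 TPM, which imply a transcript of 665 bases against 9905 bases in GENCODE 29. MTRNR2L2, a nuclear copy of mitochondrial sequence, had 1821 reads and 1880 TPM. MIR3648 had 104 reads but 1237 TPM, the sole member of implied length under 200 bases. Over the 2851 members with a GENCODE symbol, the implied length exceeded the longest transcript more than 2 times in 14 and fell below the shortest by the same factor in 11.

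Members of 1 function differed widely in 3 further cases, also chosen after their values were seen. HSPB1, the small heat shock protein, had 5 reads and 11.3 TPM (3.65 to 26.3), against a median of 207 TPM over the chaperones. CDK1 had 6 reads (2.2 to 13.1), while its partners CCNB1 and CCNA2 had 72 and 32 reads. S100A4, a marker of fibroblasts, had 14 reads, against 1961 for S100A6.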
